A study of Mus musculus with 49 samples.

Results

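Granulocyte-macrophage progenitors (GMP) and megakaryocyte-erythrocyte progenitors (MEP) are the sister populations at the fork of myeloid blood formation, and their normal transcriptomes were set against each other here. The 5 GMP and the 4 MEP libraries were taken from 49 mouse libraries of a study on the cell of origin of acute myeloid leukaemia, which also sequenced other normal progenitors and leukaemias. A gene was kept where its mean over these 9 libraries reached 1 FPKM, which left 11480 of 38253 genes in the deposited table. FPKM, fragments per length of transcript and per size of the library, is a level that can be compared between genes. The gene just inside the limit had a mean of 1 FPKM and the gene just outside it 0.9989 FPKM. Both populations were normal cells from the bone marrow of untreated wild-type C57BL/6J mice of 6 to 12 weeks. Marrow had been depleted of lineage-positive cells with antibodies to CD3ε, CD11b, B220, Gr-1 and Ter-119. GMP were then sorted as Sca-1 negative, c-Kit positive, CD150 negative cells that carried CD34 and the Fcγ receptors. The methods text lists no marker profile for MEP, whose gate the study shows as a plot that was not read here. Each sample was an individual mouse from a pair of replicate experiments, and the labels do not say which sample came from which experiment.

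GMP give rise to neutrophils, monocytes, eosinophils, basophils and mast cells, and MEP give rise to red cells and platelets. The transcription factors PU.1 (encoded by Spi1) and C/EBPα drive the granulocyte-macrophage programme, in which azurophil (primary) granules filled with myeloperoxidase and serine proteases are made first. GATA1, its cofactor FOG1 (Zfpm1) and KLF1 drive the erythroid programme, in which the erythropoietin receptor sustains survival and haem, globins and the spectrin-based membrane skeleton are built. PU.1 and GATA1 bind each other and restrain each other's activity, which is why the fork is a textbook case of a binary fate choice.

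The libraries fell cleanly into their labelled groups, with some differences inside each group that touch single gene families. Across the tested genes, the correlation of log2(FPKM + 1) was at least 0.968 between GMP libraries, at least 0.96 between MEP libraries and at most 0.829 between a GMP and an MEP library. The summed FPKM ranged from 796779 to 830319 in GMP and from 874747 to 928778 in MEP. Mitochondrial genes took 17.6% to 27.5% of it in GMP, highest in replicate 4, and 19.5% to 22.5% in MEP. Total fragments are not recorded in such values. Relative depth estimated from low genes ran from 1 to 1.815 in GMP and from 0.7236 to 0.8017 in MEP, so that all MEP libraries were shallower than all GMP libraries. The 7 GMP markers (Mpo, Elane, Prtn3, Ctsg, Csf3r, Cebpa and Irf8) summed to between 16890 and 25470 FPKM in GMP and to between 17.2 and 73.0 FPKM in MEP. The 7 MEP markers (Car1, Car2, Gata1, Klf1, Epor, Itga2b and Pf4) summed to between 10.5 and 80.3 FPKM in GMP and to between 4233 and 4751 FPKM in MEP. Car1 and Car2, with means of 2818 and 1462 FPKM, made up most of the MEP sum. Gata1, Klf1 and Epor also lay apart, so the labels held for GMP and for the erythroid side of MEP. Of the MEP markers, the megakaryocyte genes Itga2b and Pf4 overlapped between the groups. GMP replicates 1 and 2 had lower levels of MHC class II genes, Pf4 and Itga2b than GMP replicates 3 to 5. MEP replicates 3 and 4 held B-lymphoid transcripts at levels well above all other libraries. MEP replicate 4 held late neutrophil and eosinophil transcripts, and MEP replicate 3 was the lowest MEP library for myeloperoxidase, globins, Alas2 and Slc4a1. Values without these libraries are given below for several of these genes.

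The sister progenitors differed in the expression of many genes. On the log2(FPKM + 1) scale, a gene was called where limma gave it an adjusted p under 0.05 and where the log2 difference was over 1 in either direction, the difference being GMP minus MEP throughout. Of the 11480 genes, 1447 were called higher in GMP (12.6%) and 1185 higher in MEP (10.3%), and the median difference over all genes was -0.06. With no limit on fold, 7080 genes had an adjusted p below 0.05. In 1386 of the genes called higher in GMP every GMP library lay above every MEP library, and in 1132 of those called higher in MEP the reverse held. Among all genes tested, 2738 (23.9%) had all GMP libraries above all MEP libraries and 3295 (28.7%) had all MEP libraries above all GMP libraries. The largest differences were beyond 32-fold on this scale in 35 genes of GMP and in 27 genes of MEP. Because 1 was added to each FPKM value, the fold of a gene near 0 is understated. Of the tested genes, 10267 had a mean of at least 1 FPKM in both populations, 698 in GMP alone and 515 in MEP alone. The plot of mean levels shows both arms of the fork.

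**Figure D1:**
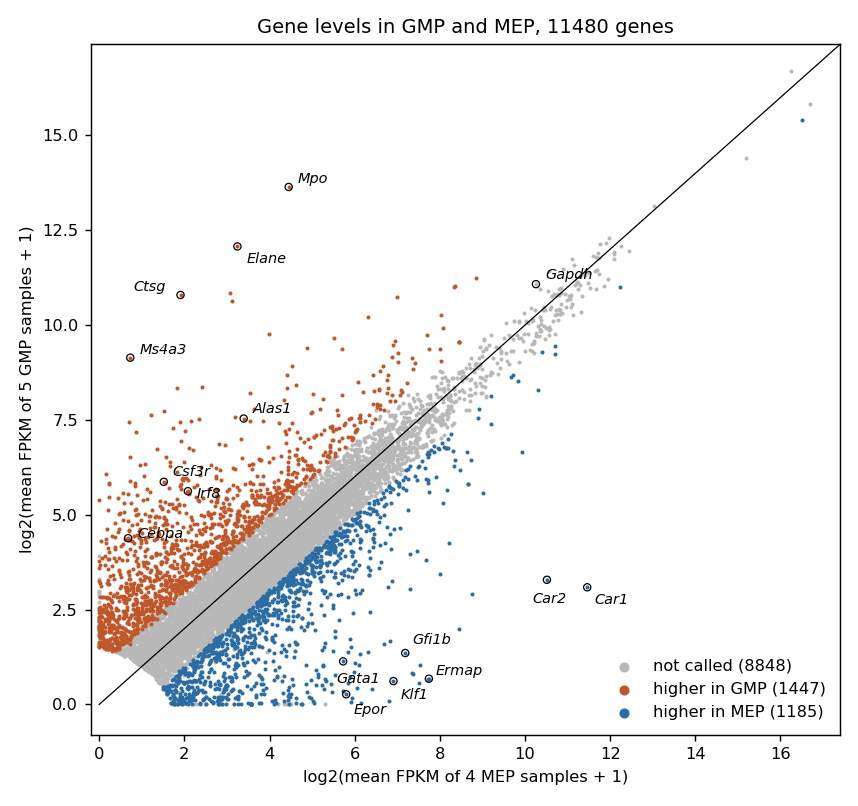
Log2 of the mean FPKM + 1 of each of the 11480 genes over the 4 MEP libraries (horizontal) and the 5 GMP libraries (vertical), with called genes coloured by the population in which they were higher, some genes named and the line of equal levels drawn. Most genes lie along the diagonal, Mpo, Elane and Ctsg stand at the top left with means of at least 1773 FPKM in GMP, and Car1 and Car2 stand at the bottom right with means of at least 1462 FPKM in MEP.

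The regulators of the granulocyte-macrophage fate were higher in GMP as a group. Of the 16 on the list 14 were tested, 11 were called higher in GMP, none was called higher in MEP and 3 were not called, with a median log2 difference of 2.06. Spi1 (chr2:90922547-90955913), which encodes PU.1, had 99.0, 65.6, 56.7, 61.9 and 71.1 FPKM in the GMP libraries and 5.03, 4.87, 4.26 and 10.3 FPKM in the MEP libraries. The groups lay far apart, with MEP replicate 4 the highest of its group. The difference was 3.38 ± 0.23 SE (adjusted p = 2.30e-07). Cebpa (chr7:35904312-35906945), the C/EBP family member that opens the granulocytic programme, had 21.0, 20.5, 20.6, 18.1 and 19.1 FPKM in GMP and 0.48, 0.96, 0.23 and 0.73 FPKM in MEP. Every MEP library was below 1 FPKM and the GMP libraries varied little. Its difference was 3.72 ± 0.14 SE (adjusted p = 2.62e-09). Gfi1, the zinc finger repressor needed for neutrophil formation, had 28.6, 23.7, 33.1, 27.9 and 27.2 FPKM in GMP and 0.26, 0.27, 0.9 and 0.48 FPKM in MEP, a difference of 4.31 ± 0.14 SE (adjusted p = 1.25e-09). Irf8, which steers cells towards monocytes and dendritic cells, had 55.0, 60.3, 40.0, 34.6 and 51.1 FPKM in GMP and 2.4, 2.2, 4.96 and 3.38 FPKM in MEP. GMP replicates 3 and 4 were the lowest of their group and still far above the highest MEP library.

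Cebpe, which controls the later granulocyte stages, was at 17.1 to 32.5 FPKM in GMP and at 0.11 to 2.07 FPKM in MEP, the highest MEP value being that of replicate 4 (3.99 ± 0.30 SE, adjusted p = 6.42e-07). Cebpd, Klf4, Irf5 and Nfil3 were also called higher in GMP, with differences of 2.12, 2.01, 1.40 and 2.12. Klf4 and Irf5 belong to the monocyte programme. Etv6, a repressor of the ETS family needed in stem cells, and Runx1, the core-binding factor subunit of definitive blood formation, differed less, by 1.11 and 1.04. Runx1 stood close to the fold limit and was not called without MEP replicate 3 (0.93) or after a correction for GC content and gene length (0.98). Cebpg differed by 0.69 with every GMP library above every MEP library but stayed under the fold limit, and Id2 (0.53) and Klf2 (0.42) overlapped between the groups.

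The erythroid and megakaryocytic regulators did not move as a block. Of 18 tested, 9 were called higher in MEP, 1 higher in GMP and 8 were not called, with a median of -1.06. Gata1 (chrX:7536386-7555197) had 0.48, 0.4, 2.1, 1.55 and 1.45 FPKM in GMP and 52.8, 49.5, 55.3 and 50.6 FPKM in MEP. GMP replicates 1 and 2 were the lowest, and the whole GMP range lay far below the lowest MEP library. The difference was -4.66 ± 0.22 SE (adjusted p = 1.66e-08). Klf1 (chr8:87425827-87429194), the erythroid factor that activates globin, haem and membrane genes, had 0.28, 0.32, 0.8, 0.9 and 0.36 FPKM in GMP and 128, 108, 120.1 and 121 FPKM in MEP. No GMP library reached 1 FPKM, and the difference of -6.31 ± 0.14 SE (adjusted p = 1.18e-10) was the largest among the regulators. Gfi1b, the erythroid and megakaryocytic relative of Gfi1, had 1.02, 0.78, 1.75, 1.54 and 2.7 FPKM in GMP and 147, 143, 127 and 162 FPKM in MEP, a difference of -5.87 ± 0.19 SE (adjusted p = 9.69e-10). Gfi1 and Gfi1b thus took opposite sides, and the ratio of Gfi1 to Gfi1b (each value + 1) ran from 7.61 to 14.6 in GMP and from 0.00853 to 0.0148 in MEP.

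Zfpm1, which encodes the GATA1 cofactor FOG1, differed by -5.17 ± 0.24 SE and the stem and erythroid factor Tal1 by -3.13 ± 0.12 SE. Their partners in the same DNA-bound complex, Ldb1 and Lmo2, differed by -2.29 and -1.14, and the corepressor Cbfa2t3 by -1.52. Gata2, which precedes Gata1 in the stem and early progenitor stages, kept a low level in GMP at 4.61 to 16.6 FPKM against 43.7 to 66.7 FPKM in MEP (-2.35 ± 0.28 SE, adjusted p = 2.78e-05). Fli1, the ETS factor of megakaryocytes that opposes KLF1, went the other way, with 61.4, 45.4, 51.1, 45.2 and 44.98 FPKM in GMP and 14.8, 18.5, 15.5 and 18.1 FPKM in MEP (1.51 ± 0.11 SE, adjusted p = 5.27e-07). Nfe2, which serves late platelet formation, did not pass the test, at 35.4 to 42.2 FPKM in GMP and 40.3 to 49.7 FPKM in MEP (-0.15, adjusted p = 0.152). Mafk (-0.97), Zbtb7a (-0.85) and Bach1 (-0.40) had every MEP library above every GMP library, and Lyl1 (0.89), Mef2c (0.84) and Mafg (0.42) the reverse, all within the fold limit, and Ikzf2 (0.48) overlapped. Lyl1 was called after the GC and length correction (1.47), and Mafk was called without GMP replicate 3 or 4 or without MEP replicate 1 or 3 (-1.03 to -1.0). The ratio of Spi1 to Gata1 (each value + 1) ran from 18.6 to 67.5 in GMP and from 0.0935 to 0.219 in MEP, with medians of 29.4 and 0.114.

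**Figure D2:**
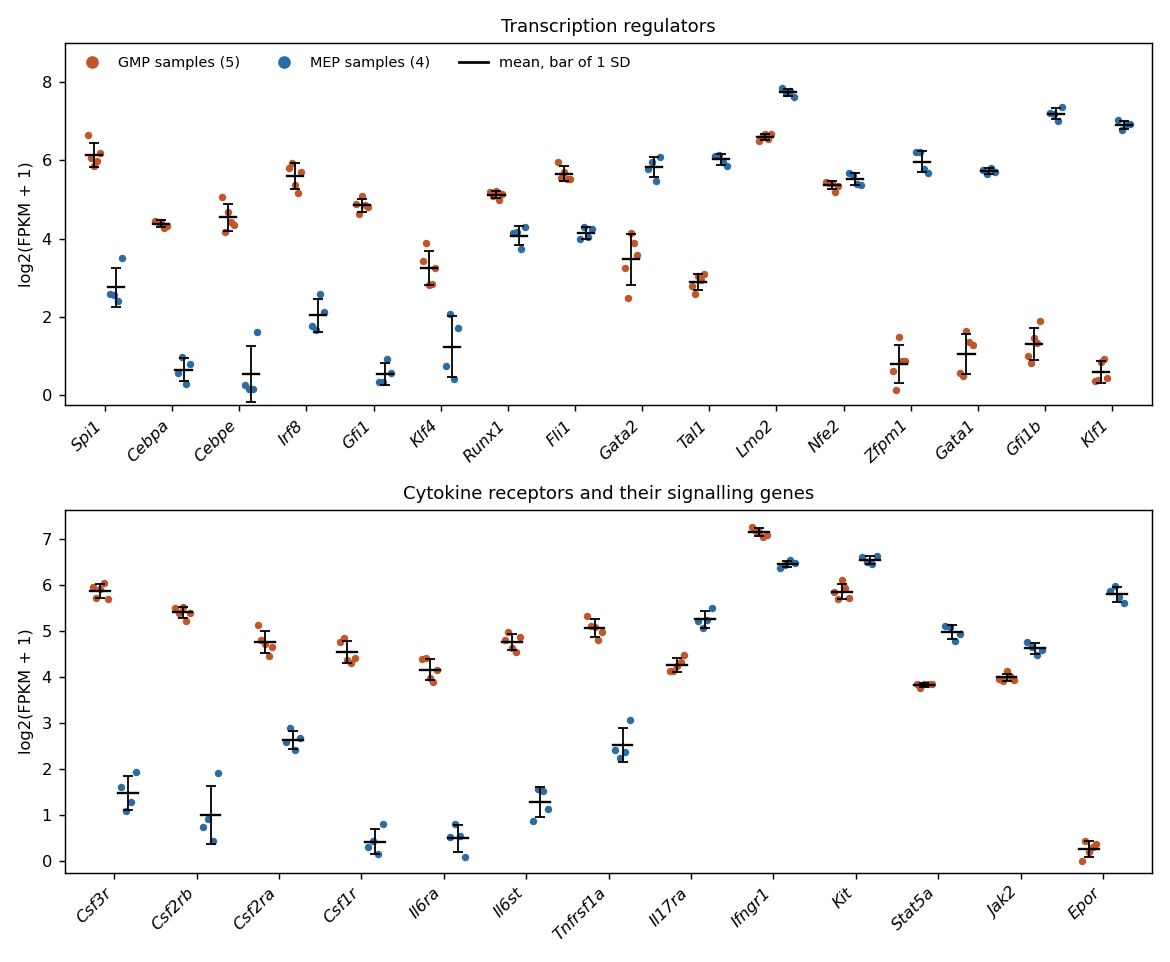
Levels by library on the log2(FPKM + 1) scale for 16 transcription regulators (upper panel) and 13 receptor and signalling genes (lower panel), with points for the 5 GMP and 4 MEP libraries and bars for the mean and SD. Gata1, Klf1, Gfi1b, Zfpm1 and Epor stand high in MEP and low in GMP, while Spi1, Cebpa, Gfi1, Csf3r and Csf1r stand high in GMP.

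To show the sequence in front of genes that moved together, the 250 bases before the start of 3 genes higher in MEP and 3 genes higher in GMP are printed from RefSeq (build GRCm38.p6), each 5′ to 3′ on the strand of its gene. The windows of Gata1 and Cebpa, which were also searched, are described after them, so that 4 windows were searched for each population. In the first set capitals mark every match, on either strand, to the GATA letters AGATAA or TGATAA and to the KLF letters CCNCNCCC. Over the windows of this length before 32851 RefSeq starts, 16.6% held the GATA letters and 45.9% the KLF letters. These are matches of letters, and binding was not measured here.
Klf1 (chr8:84901732-84901981, + strand): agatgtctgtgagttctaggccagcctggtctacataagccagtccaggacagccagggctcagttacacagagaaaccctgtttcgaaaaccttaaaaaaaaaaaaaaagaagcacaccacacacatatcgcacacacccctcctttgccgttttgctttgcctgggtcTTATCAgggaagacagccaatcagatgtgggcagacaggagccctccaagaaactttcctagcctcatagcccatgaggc
Epor (chr9:21963577-21963826, - strand): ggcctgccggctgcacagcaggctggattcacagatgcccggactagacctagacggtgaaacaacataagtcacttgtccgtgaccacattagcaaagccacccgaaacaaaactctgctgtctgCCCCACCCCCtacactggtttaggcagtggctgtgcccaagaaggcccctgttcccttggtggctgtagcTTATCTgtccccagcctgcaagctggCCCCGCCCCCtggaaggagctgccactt
Alas2 (chrX:150547167-150547416, + strand): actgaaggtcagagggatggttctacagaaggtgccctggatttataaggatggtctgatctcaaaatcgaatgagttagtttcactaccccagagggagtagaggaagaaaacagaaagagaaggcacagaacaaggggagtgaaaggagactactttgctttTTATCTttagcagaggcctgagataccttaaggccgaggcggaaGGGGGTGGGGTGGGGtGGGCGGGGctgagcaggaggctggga
In the second set capitals mark the PU.1 letters GAGGAA on either strand, which 23.3% of all windows held, and the C/EBP letters TTGCNNAA, which 9.56% held and which had no match in these 3 windows.
Mpo (chr11:87793534-87793783, + strand): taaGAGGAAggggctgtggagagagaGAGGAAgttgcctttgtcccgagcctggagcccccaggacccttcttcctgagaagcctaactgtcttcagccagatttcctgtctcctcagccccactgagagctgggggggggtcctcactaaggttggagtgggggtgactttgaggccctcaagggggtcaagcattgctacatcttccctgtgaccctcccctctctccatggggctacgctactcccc
Elane (chr10:79886062-79886311, + strand): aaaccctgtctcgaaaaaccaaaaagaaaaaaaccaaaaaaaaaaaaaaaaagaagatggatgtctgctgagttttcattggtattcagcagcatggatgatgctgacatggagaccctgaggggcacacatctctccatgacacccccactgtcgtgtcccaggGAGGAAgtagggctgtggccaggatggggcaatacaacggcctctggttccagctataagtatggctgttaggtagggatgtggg
Csf3r (chr4:126024409-126024658, + strand): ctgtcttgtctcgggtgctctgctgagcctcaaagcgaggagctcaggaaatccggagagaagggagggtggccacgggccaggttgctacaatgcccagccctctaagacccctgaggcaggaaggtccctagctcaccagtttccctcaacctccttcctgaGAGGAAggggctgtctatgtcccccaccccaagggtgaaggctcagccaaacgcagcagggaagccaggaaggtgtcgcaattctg
Of the 4 windows searched for MEP, 3 held GATA letters, all on the opposite strand, at bases 80 to 75 before the start in Klf1, 54 to 49 in Epor and 86 to 81 in Alas2. Epor and Alas2 each held 4 matches to the KLF letters, some of them overlapping, and Klf1 held 0. The Gata1 window held 0 matches to the GATA letters and 3 to the KLF letters. Of the 4 windows searched for GMP, 3 held PU.1 letters, with 2 matches in Mpo and 1 each in Elane and Csf3r, at bases 85 to 80 and 86 to 81. The Cebpa window held 0 matches to the PU.1 letters, and the C/EBP letters had 0 matches in any of the 8 windows. Each set also held letters marked only in the other, since the KLF letters had 2 matches in Mpo and 1 each in Csf3r and Cebpa, and the PU.1 letters 1 each in Gata1 and Alas2. A promoter entry was found for 68.4% of the genes called higher in GMP and 64.2% of those called higher in MEP, so no share over the called genes is given.

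Primary granule genes were among the most abundant transcripts of GMP. All 12 tested members of the list of 14 were called higher in GMP, with a median log2 difference of 5.36. Mpo (chr11:87607083-87617915), myeloperoxidase, had 14350, 14030, 12450, 10740 and 12230 FPKM in GMP and 25.8, 24.4, 2.74 and 30.4 FPKM in MEP. MEP replicate 3 was the lowest by far and the remaining MEP libraries sat close together, and without replicate 3 the difference was 8.84 (adjusted p = 4.43e-11). With all libraries it was 9.56 ± 0.52 SE (adjusted p = 4.72e-08), the largest of all tested genes, and Mpo took 1.33% to 1.73% of the summed FPKM in GMP against 0.000305% to 0.00328% in MEP. Elane (chr10:79349057-79350961), neutrophil elastase, had 6449, 4386, 3724, 3078 and 3872 FPKM in GMP and 5.09, 5.22, 1.24 and 22.4 FPKM in MEP. Both the highest GMP library, replicate 1, and the highest MEP library, replicate 4, stood apart from their groups, yet the groups did not approach each other (9.29 ± 0.52 SE, adjusted p = 5.73e-08). The proteases Ctsg and Prtn3 followed with differences of 8.96 ± 0.22 SE and 7.76 ± 0.17 SE, and together with Mpo and Elane they made up 2.07% to 3.05% of the summed FPKM of a GMP library.

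Ms4a3, a membrane protein that marks GMP and their offspring, had 606, 594, 559, 545 and 513 FPKM in GMP and 0.66, 1.26, 0.27 and 0.44 FPKM in MEP. The GMP libraries lay close together, and the difference was 8.44 ± 0.14 SE (adjusted p = 3.58e-11). Srgn, serglycin, the proteoglycan that packs granule proteases, was abundant in both populations, with 1233 ± 62.8 (SD, n = 5) FPKM in GMP and 259 ± 36.2 (SD, n = 4) FPKM in MEP (2.26 ± 0.09 SE). Plac8 (3.94), Anxa3 (6.86) and Emb (6.55) were further genes with large differences, Anxa3 encoding an annexin and Emb a cell adhesion protein that accompanies monocarboxylate transporters.

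Secondary granule and late neutrophil genes varied widely between libraries of the same group. Of 17 tested members of 18, 8 were called higher in GMP, none higher in MEP and 9 were not called, with a median of 2.03. S100a8, a subunit of the calcium-binding alarmin calprotectin, had 4245, 770.2, 1856, 1904 and 1636 FPKM in GMP and 131, 159, 14.9 and 997 FPKM in MEP. GMP replicate 2 was below MEP replicate 4, so the groups overlapped (3.74 ± 0.94 SE, adjusted p = 0.00489). Its partner S100a9 (3.39 ± 0.97 SE, adjusted p = 0.0103), Ngp (2.80 ± 0.99 SE, adjusted p = 0.0291) and the cathelicidin gene Camp (3.29 ± 0.92 SE, adjusted p = 0.00927) were called with overlapping groups. Ltf, lactoferrin, had 64.9, 6.41, 46.8, 43.8 and 45.8 FPKM in GMP and 5.91, 7.05, 0.65 and 54.7 FPKM in MEP and did not pass the test (adjusted p = 0.0717), nor did Retnlg (1.35, adjusted p = 0.342). For Ltf, MEP replicate 4 lay within the range of GMP, and GMP replicate 2 lay within the range of MEP. Fcnb, ficolin B, was the exception among the late genes named, with 77.2 to 191 FPKM in GMP and 0.17 to 7.83 FPKM in MEP (4.9 ± 0.49 SE, adjusted p = 6.26e-06).

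These late genes differed between single libraries as a set. The 5 late neutrophil markers summed to between 1653 and 10960 FPKM in GMP and to between 42.9 and 2986 FPKM in MEP, and none was at 0 throughout a group. Without MEP replicates 3 and 4, 12 of the 17 members were called higher in GMP. Without GMP replicates 3 to 5, 3 were. S100a8 (3.74 ± 1.51 SE, adjusted p = 0.0773), S100a9 (3.29 ± 1.56 SE, 0.122), Camp (3.28 ± 1.48 SE, 0.108) and Ngp (2.54 ± 1.59 SE, 0.225) were then not called. Their differences were near those with all libraries, and the SE was larger. Ltf was called without GMP replicate 2 (2.58, adjusted p = 0.0203) or without MEP replicate 4 (2.94, adjusted p = 0.00587). In a fit of all 6 normal populations S100a8 (adjusted p = 0.118), S100a9 (0.163), Ngp (0.26) and Camp (0.155) were not called. That fit takes its spread from all 6 populations. The differences were the same and the SE larger, as for S100a8 (3.74 ± 1.98 SE) and S100a9 (3.39 ± 2.00 SE). Ngp also missed the threshold when any of 7 libraries was left out (adjusted p from 0.0521 to 0.078), those being GMP replicates 1, 3, 4 and 5 and MEP replicates 1, 2 and 3. In bulk samples fewer cells of a type and less RNA per cell cannot be told apart, and the part of late neutrophils in these values was not tested.

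Monocyte genes were present in GMP at levels well above MEP. Of 14 tested members of 16, 13 were called higher in GMP and 1 was not called, with a median of 3.39. F13a1, the A subunit of coagulation factor XIII made by monocytes, had 149, 191, 123, 109.5 and 151 FPKM in GMP and 0.55, 0.36, 0.63 and 1.77 FPKM in MEP. GMP replicate 2 was the highest and the MEP libraries stayed below 2 FPKM (6.35 ± 0.21 SE, adjusted p = 1.30e-09). Ly86, which encodes the MD-1 partner of the receptor CD180, was at 90.7 to 157 FPKM in GMP and 1.75 to 4.13 FPKM in MEP (5.04 ± 0.20 SE). Ccr2, the chemokine receptor by which monocytes leave the marrow, differed by 3.59 ± 0.19 SE. Ly6c2 was at 1205 to 2050 FPKM in GMP and 1.32 to 19.1 FPKM in MEP (7.89 ± 0.47 SE, adjusted p = 9.71e-08), but 53.5% of its 31-base windows recur in another gene, so its reads could have been split with near copies.

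The machinery of phagocytes for killing and sensing microbes was higher in GMP, in steps that differed by component. All 6 genes of the phagocyte oxidase, which makes superoxide, were called higher in GMP, with a median of 3.11. The membrane subunits Cybb (gp91phox) and Cyba (p22phox) differed by 3.78 and 1.72, the cytosolic Ncf1 (p47phox) by 4.26 and the GTPase Rac2 by 1.96. Cybb was at 1.46 to 10.3 FPKM in MEP, with replicate 4 highest. Of 17 Toll-like receptor genes and adaptors tested out of 21, 10 were called higher in GMP and 7 were not called, with a median of 1.20. Tlr4, the receptor for lipopolysaccharide, was at 5.78 to 8.9 FPKM in GMP and 0.14 to 0.86 FPKM in MEP (2.5 ± 0.17 SE), and Ticam2, the adaptor TRAM that serves TLR4, at 10.8 to 12.5 and 0.05 to 0.55 FPKM (3.36 ± 0.13 SE). Cd180 differed by 2.38. Shared downstream parts did not pass the call: Irak1 differed by 0.35 and Traf6 by -0.15, both with overlapping groups.

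Adhesion, homing and lysosomal genes were mostly higher in GMP as well. Of 13 tested genes for integrins, selectins and chemokine receptors, 9 were called higher in GMP and 4 were not called, with a median of 1.51. Cxcr4, the receptor that retains cells in the marrow, was at 112 to 142 FPKM in GMP and 21.4 to 33.7 FPKM in MEP (2.31 ± 0.13 SE). Cd44 differed by 0.73 and Itga4, the α4 integrin, by -0.89, each with groups that did not overlap but within the fold limit. Of 14 lysosomal genes tested, 10 were called higher in GMP, 1 higher in MEP and 3 were not called, with a median of 1.56. Hexa (2.75), Ctsh (4.37), Lamp2 (2.02) and Lamp1 (1.18) were higher in GMP. Ctse, the aspartic protease cathepsin E found in red cell precursors, was the gene on the other side, with 2.59, 3.36, 3.29, 2.24 and 3.49 FPKM in GMP and 447, 348, 275 and 325 FPKM in MEP (-6.44 ± 0.15 SE, adjusted p = 1.24e-10). Its aspartic relative Ctsd differed by -0.48 and was not called.

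Cytokine receptors divided the populations by the growth factors of each lineage. Of 19 tested members of 23, 11 were called higher in GMP, 2 higher in MEP and 6 were not called, with a median of 1.58. Csf3r (chr4:125701794-125722219), the receptor for G-CSF, had 60.7, 51.3, 58.9, 65.3 and 50.8 FPKM in GMP and 2.06, 1.13, 1.44 and 2.81 FPKM in MEP. The lowest GMP library was far above the highest MEP library (4.38 ± 0.16 SE, adjusted p = 2.47e-09). Csf1r, the receptor for M-CSF, had 25.9, 27.9, 19.6, 18.8 and 20.4 FPKM in GMP and 0.23, 0.36, 0.11 and 0.74 FPKM in MEP (4.12 ± 0.16 SE, adjusted p = 4.56e-09). The common β chain Csf2rb and the α chain Csf2ra of the GM-CSF receptor differed by 4.40 and 2.12, and the interleukin-6 receptor chains Il6ra and Il6st by 3.67 and 3.49. Tnfrsf1a, a receptor for TNF, differed by 2.54. Ifngr1 (0.69) and Il17ra (-0.99) had groups that did not overlap but were within the fold limit, Il17ra so narrowly that it was called without GMP replicate 4 or 5 or without MEP replicate 1, 2 or 3 (-1.06 to -1.0).

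Epor (chr9:21763343-21768020), the erythropoietin receptor, had 0, 0.36, 0.14, 0.23 and 0.29 FPKM in GMP and 57.0, 62.2, 52.0 and 47.7 FPKM in MEP. The gene was listed at 0 in GMP replicate 1 and no GMP library reached 1 FPKM (-5.53 ± 0.12 SE, adjusted p = 1.24e-10). Downstream of Epor the differences were smaller. Of 7 tested members of the 11 signalling genes, 2 were called higher in MEP, namely Epor itself and Stat5a, while 1 was called higher in GMP and 4 were not called, with a median of -0.63. Over all tested genes 10.3% were called higher in MEP and 12.6% higher in GMP, so these few calls give no direction for the list. Jak2, the kinase bound to the receptor, was at 13.99 to 16.4 FPKM in GMP and 21.2 to 26.2 FPKM in MEP (-0.63), and Stat5a at 12.5 to 13.5 and 26.6 to 33.7 FPKM (-1.15 ± 0.08 SE). Stat5a fell within the fold limit after the GC and length correction (-0.93). Lyn, a Src family kinase, was higher in GMP (1.06 ± 0.11 SE), and without MEP replicate 2 it was within the fold limit (0.99).

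The red cell membrane and carbonic anhydrase genes were nearly all higher in MEP. Of 24 tested members of 25, 22 were called higher in MEP, 1 higher in GMP and 1 was not called, with a median of -4.03. Car1 (chr3:14766217-14778459), carbonic anhydrase 1, had 0.65, 0.7, 9.57, 17.1 and 9.47 FPKM in GMP and 2826, 2557, 2840 and 3048 FPKM in MEP. GMP replicates 1 and 2 were below 1 FPKM and GMP replicates 3 to 5 were near 10 or above, far from the MEP libraries, which lay close together. The difference was -8.97 ± 0.67 SE (adjusted p = 5.72e-07), the largest on this side. Car2 had 4.35, 6.04, 13.3, 11.6 and 8.46 FPKM in GMP and 1651, 1419, 1422 and 1354 FPKM in MEP (-7.32 ± 0.25 SE, adjusted p = 1.46e-09), and Car1 and Car2 together took 0.437% to 0.512% of the summed FPKM in MEP.

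Members of each part of the membrane were among these genes. Of the skeleton, the spectrin chain Sptb differed by -4.0, its ankyrin anchor Ank1 by -5.65, and the adducins Add1 and Add2 by -1.50 and -4.74. Of the proteins that span the membrane, Aqp1, the water channel, differed by -7.08 ± 0.19 SE, Ermap, a blood group antigen, by -7.09 ± 0.15 SE, Rhag, the Rh-associated glycoprotein, by -5.77 ± 0.13 SE and Kel by -4.82 ± 0.24 SE. Slc4a1, the band 3 anion exchanger, was at low levels in MEP with 7.84, 8.55, 2.93 and 7.71 FPKM against 0.44, 0.88, 0.76, 0.17 and 0.89 FPKM in GMP. MEP replicate 3 was the lowest of its group and the groups did not overlap (-2.19 ± 0.27 SE, adjusted p = 3.24e-05). Without that library the difference was -2.49 (adjusted p = 2.60e-06). In a fit of all 6 normal populations the difference was the same with a larger SE of 1.21, and the gene was not called (adjusted p = 0.135). Long-term stem cells (LT-HSC) averaged 116.3 FPKM over libraries from 1.28 to 390.9 FPKM. Short-term stem cells (ST-HSC) averaged 43.9 FPKM over libraries from 0.18 to 163.6 FPKM. Multipotent progenitors (MPP) averaged 5.45 FPKM and common myeloid progenitors 3.46 FPKM. Sptbn1, the non-erythroid β spectrin, was the member higher in GMP, with 76.7, 74.8, 83.3, 73.4 and 61.9 FPKM in GMP and 6.57, 6.04, 8.52 and 10.2 FPKM in MEP (3.10 ± 0.14 SE). The ratio of Sptbn1 to Sptb (each value + 1) had a median of 58.1 in GMP and 0.426 in MEP.

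**Figure D3:**
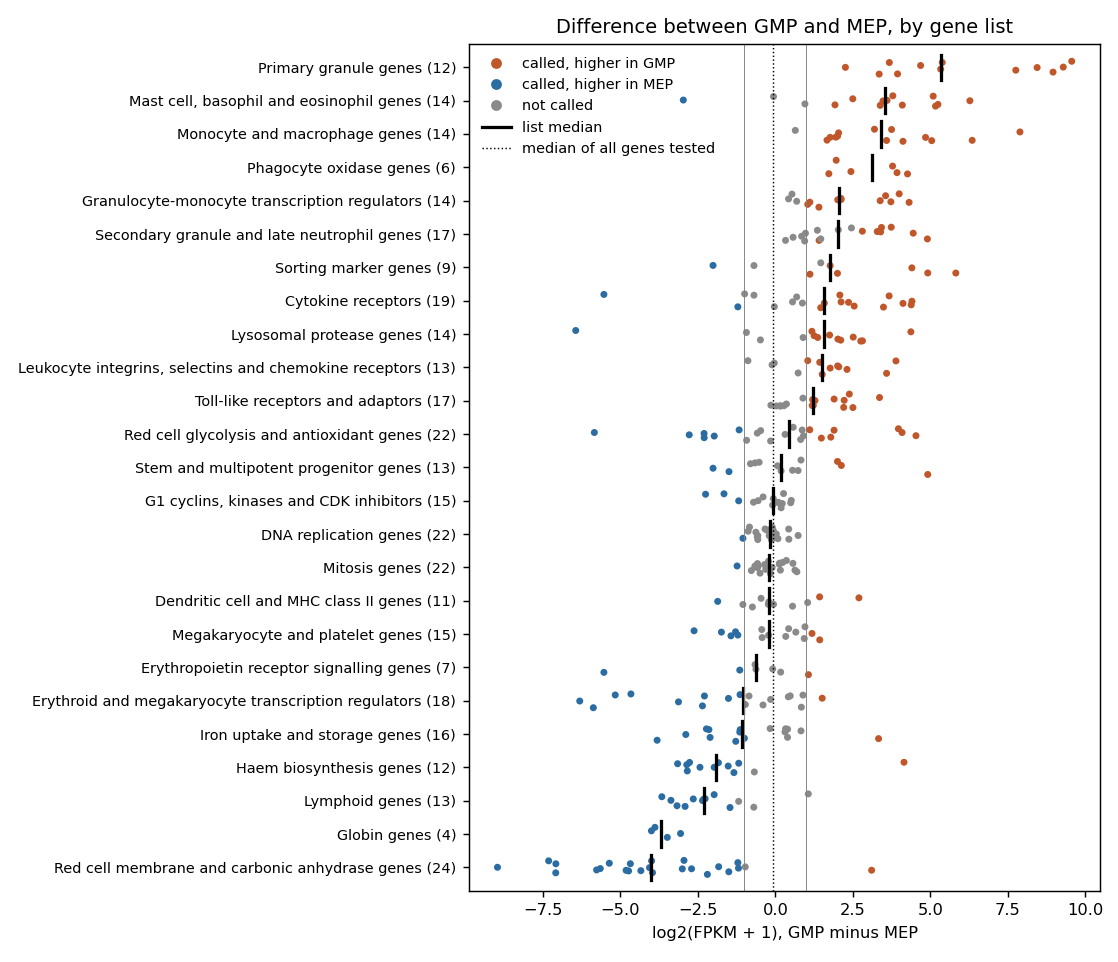
Log2 difference (GMP minus MEP) of each tested member of the 25 gene lists, a point for each gene and a bar for the median of the list, with the limits of the call at 1 and -1 drawn. Primary granule genes have a median of 5.36 and red cell membrane genes a median of -4.03, whereas the DNA replication and mitosis lists sit around 0.

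Globin genes were higher in MEP and varied between libraries. Of 10 on the list 4 were tested, and all 4 were called higher in MEP, with a median of -3.69. Hbb-b1 had 97.5, 44.2, 116, 48.9 and 189.9 FPKM in GMP and 1076, 1062, 149 and 1619 FPKM in MEP. MEP replicate 3 fell within the range of GMP (-3.06 ± 0.65 SE, adjusted p = 0.0018), and without it the difference was -3.82 (adjusted p = 4.21e-05). In a fit of all 6 normal populations the difference was the same with a larger SE of 1.59, and the gene was not called (adjusted p = 0.112). Hbb-b1 averaged 13910 FPKM in LT-HSC (49.0 to 44050) and 6374 FPKM in ST-HSC (48.8 to 24160), both above MEP. It averaged 299.8 FPKM in MPP and 277.2 FPKM in common myeloid progenitors. Hba-a1, Hba-a2 and Hbb-b2 differed by -3.89, -4.0 and -3.49 with groups that did not overlap, and by -4.36, -4.54 and -4.04 without MEP replicate 3. Of the windows of 31 bases, 73.6% in Hba-a1, 91.4% in Hba-a2, 44.0% in Hbb-b1 and 55.5% in Hbb-b2 recur in another gene, so the split between these copies is uncertain. The 4 late erythroid markers summed to between 51.5 and 221 FPKM in GMP and between 218 and 1951 FPKM in MEP, and the part of late red cell precursors in these values was not tested.

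Haem synthesis genes were higher in MEP at nearly every step, the housekeeping form of the first enzyme apart. Of 12 genes 10 were called higher in MEP, 1 higher in GMP and 1 was not called, with a median of -1.91. The first enzyme comes in a housekeeping form, ALAS1, and an erythroid form, ALAS2. Alas1 had 225, 170.1, 185, 157 and 186 FPKM in GMP and 10.4, 8.38, 7.71 and 11.5 FPKM in MEP, so that the housekeeping form was on the GMP side (4.15 ± 0.13 SE, adjusted p = 7.90e-10). Alas2 had 1.62, 0.56, 2.01, 1.13 and 2.15 FPKM in GMP and 9.44, 8.38, 1.68 and 7.9 FPKM in MEP. MEP replicate 3 lay within the GMP range (-1.52 ± 0.38 SE, adjusted p = 0.00489), and without it the difference was -1.98 (adjusted p = 4.86e-05). In a fit of all 6 normal populations the difference was the same with a larger SE of 0.98, and Alas2 was not called (adjusted p = 0.204). Alas2 averaged 95.4 FPKM in LT-HSC (4.16 to 329) and 46.2 FPKM in ST-HSC (1.87 to 164.4), both above MEP. It averaged 4.69 FPKM in MPP and 4.62 FPKM in common myeloid progenitors. The ratio of Alas1 to Alas2 (each value + 1) ran from 59.4 to 110 in GMP and from 1 to 3.25 in MEP. The next enzymes of the pathway, Alad (-2.84), Urod (-2.43), Cpox (-3.16) and Fech (-1.84), were all higher in MEP, as was the mitochondrial glycine carrier Slc25a38 (-2.86) and, less so, the transporter Tmem14c (-1.18).

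Iron handling shifted in parts. Of 16 genes 9 were called higher in MEP, 1 higher in GMP and 6 were not called, with a median of -1.07. Tfrc, the transferrin receptor that brings iron into the cell, had 46.1, 53, 54.6, 54.3 and 45.5 FPKM in GMP and 147, 109, 104 and 95.3 FPKM in MEP. The groups did not overlap and the difference of -1.14 ± 0.12 SE was close to the limit of the call, which it missed with mitochondrial genes left out of a common total (-1.0). The second receptor Tfr2 (-3.82), the ferrireductase Steap3 (-2.89), the transporter Slc11a2 (-2.23), the exporter Slc40a1 (-2.11) and the iron-sulphur assembly gene Glrx5 (-2.15) were all called higher in MEP. Ferritin heavy chain Fth1 was higher in MEP (693 ± 67.5 (SD, n = 5) FPKM in GMP and 1680 ± 132 (SD, n = 4) FPKM in MEP, -1.28 ± 0.08 SE), whereas ferritin light chain Ftl1, of whose windows 59.8% recur elsewhere, overlapped between the groups (0.31). Trf, transferrin itself, was the gene higher in GMP (3.33 ± 0.18 SE, adjusted p = 4.94e-08), though 63.4% of its windows recur in another gene model.

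Glycolysis genes were split between the populations, also within enzyme families. Of 22 genes for glycolysis and defence against oxidants, 7 were called higher in GMP, 6 higher in MEP and 9 were not called, with a median of 0.44. Pkm, the pyruvate kinase of most tissues, had 185, 193, 176, 145 and 178 FPKM in GMP and 9.11, 7.94, 9.47 and 15.7 FPKM in MEP (3.97 ± 0.16 SE, adjusted p = 5.98e-09). Pklr, which encodes the liver and red cell enzyme, had 0, 0.03, 0.09, 0.02 and 0.08 FPKM in GMP and 61.6, 62.9, 62.3 and 49.6 FPKM in MEP (-5.84 ± 0.10 SE, adjusted p = 3.58e-11). The ratio of Pkm to Pklr (each value + 1) ran from 143 to 188 in GMP and from 0.140 to 0.331 in MEP. Gpi1 (1.89) and Ldhb (4.09) were higher in GMP and Hk1 (-1.97) in MEP, and Gapdh (0.81) and Ldha (-0.48) were within the fold limit. Pgam1 differed by 4.53, but 80.6% of its windows recur elsewhere. Of the glucose transporters, Slc2a1 was higher in GMP (1.79) and Slc2a3 higher in MEP (-1.17). The peroxiredoxin gene Prdx2 (-2.30) and Gclm (-2.30), which serves glutathione synthesis, were higher in MEP, and the glutathione peroxidase gene Gpx1 was within the fold limit (0.57). The pairs shown in the plot of exchanges were chosen after their values were seen.

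**Figure D4:**
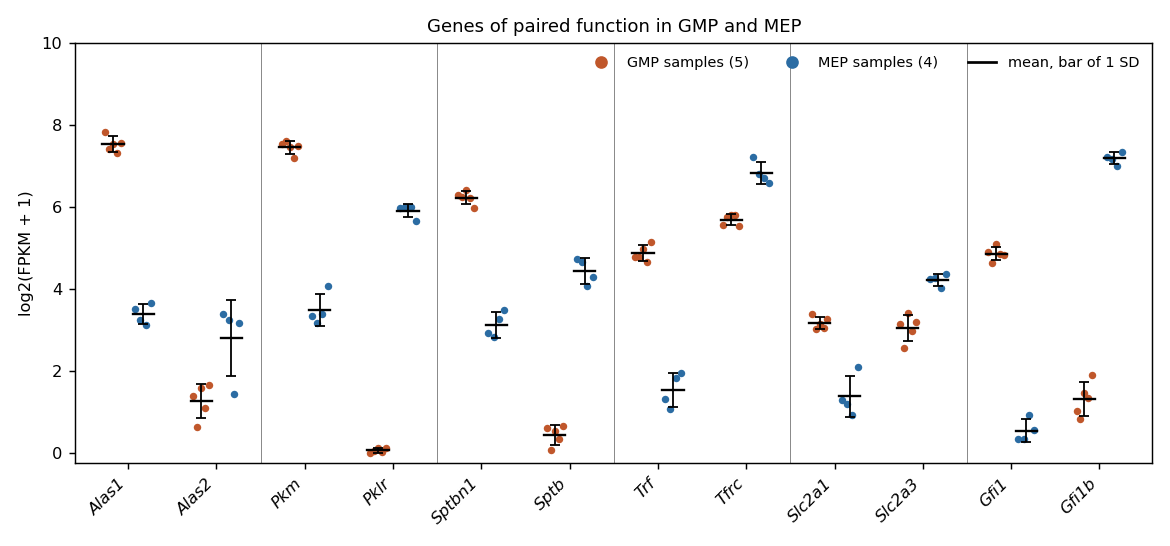
Levels on the log2(FPKM + 1) scale of both members of 6 gene pairs, a point for each of the 5 GMP and 4 MEP libraries with bars for the mean and SD. In Pkm and Pklr, Sptbn1 and Sptb, and Gfi1 and Gfi1b the population with the higher level switches between the members, and the ratio of Pkm to Pklr is at least 143 in GMP and at most 0.331 in MEP.

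Megakaryocyte and platelet genes were at low levels in MEP and did not separate the populations as a set. Of 24 on the list 15 were tested, 5 were called higher in MEP, 2 higher in GMP and 8 were not called, with a median of -0.22. Gp5, a subunit of the von Willebrand factor receptor of platelets, had 0, 0, 0.23, 0.25 and 0.1 FPKM in GMP and 6.48, 5.48, 4.69 and 6.99 FPKM in MEP (-2.62 ± 0.16 SE, adjusted p = 1.27e-07). Gp1ba (-1.74), Gp9 (-1.43) and Vwf (-1.29) were also called higher in MEP, and Itgb3, the β3 integrin, higher in GMP (1.43). Rap1b, a GTPase that activates integrins, was within the fold limit (0.95) and was called without MEP replicate 1 (1.03), and the tetraspanin gene Cd9 overlapped (0.33). Pf4, platelet factor 4, had 1.05, 2.83, 39.4, 30.5 and 19.6 FPKM in GMP and 26.6, 26.1, 7.11 and 8.62 FPKM in MEP. GMP replicates 1 and 2 were below every MEP library and GMP replicates 3 and 4 above every MEP library, and the gene did not pass the test (-0.43 ± 0.86 SE, adjusted p = 0.685). Itga2b, the αIIb integrin CD41, had a like pattern, with 3.71, 2.56, 14.99, 16.3 and 7.14 FPKM in GMP and 9.06, 11.9, 6.45 and 7.71 FPKM in MEP (-0.22). Without GMP replicates 3 to 5, 7 of the 15 were called higher in MEP and 3 higher in GMP, with Pf4 at -2.47 and Itga2b at -1.23. These libraries held the higher GMP values of both genes and the setting was not planned. The direction of Pf4 and Itga2b there follows from the choice and is no separate result.

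MHC class II genes, which present peptides to T cells, followed the same GMP libraries. Of 11 tested genes of dendritic cells and MHC class II out of 17, 2 were called higher in GMP, 1 higher in MEP and 8 were not called, with a median of -0.21. The shares over all tested genes were 12.6% and 10.3%, so these few calls give no direction either. Cd74, the invariant chain, had 1.63, 1.58, 49.1, 47.2 and 44.6 FPKM in GMP and 23.4, 24.3, 32.6 and 43.1 FPKM in MEP. GMP replicates 1 and 2 were far below all other libraries and GMP replicates 3 to 5 were above all MEP libraries (-1.05, adjusted p = 0.361). H2-Aa had 2.19, 2.51, 55.9, 63.4 and 56.1 FPKM in GMP and 17.6, 14.3, 26.5 and 17.9 FPKM in MEP, with the same split (-0.06, adjusted p = 0.96). Leaving out GMP replicates 3 to 5, a setting that was not planned, put Cd74 at -3.57 and H2-Aa at -2.55. The libraries left out held the high values, so this direction follows from the choice and is no separate result. The peptide loading genes H2-DMa (1.43 ± 0.09 SE) and H2-DMb1 (2.69 ± 0.16 SE) did not follow the split and were higher in GMP. Bst2 (-0.21) overlapped between the groups and Tcf4 (-0.46), a factor of plasmacytoid dendritic cells, was within the fold limit. Irf7, an interferon regulator abundant in plasmacytoid dendritic cells, was higher in MEP (-1.86), at 6.41 to 10.3 FPKM there, while the 2 plasmacytoid markers summed to at most 1.15 FPKM in any library.

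**Figure D5:**
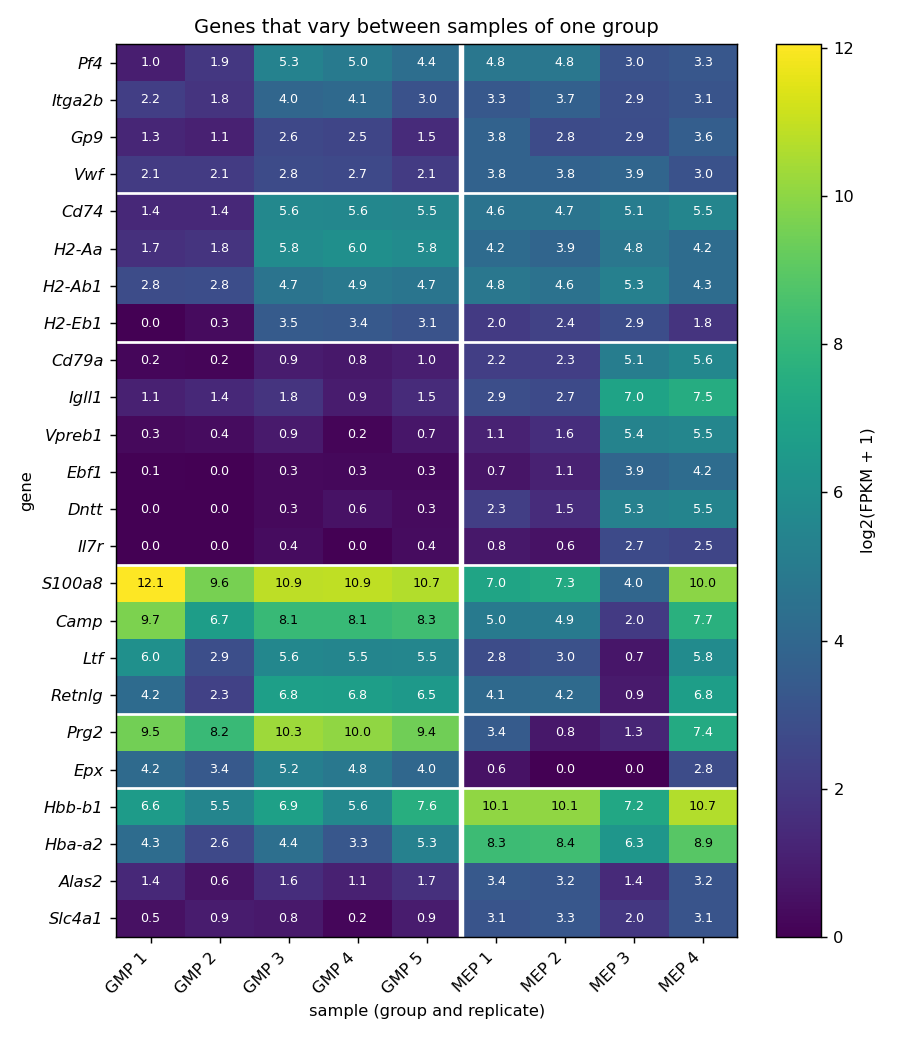
Log2(FPKM + 1) of 24 genes in each of the 5 GMP and 4 MEP libraries, grouped as megakaryocyte, MHC class II, lymphoid, late neutrophil, eosinophil and late erythroid genes, with the shade and the printed figure giving the level. MHC class II genes are lowest in GMP replicates 1 and 2, lymphoid genes are highest in MEP replicates 3 and 4, and late neutrophil genes in MEP replicate 4 reach the range of GMP.

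Lymphoid genes were called higher in MEP, and the number of calls fell when MEP replicates 3 and 4 or GMP replicates 3 to 5 were left out. The median difference shrank in the former case and not in the latter. Of 13 tested members of 20, 10 were called higher in MEP and 3 were not called, with a median of -2.31. Cd79a, a signalling chain of the B cell receptor, had 0.15, 0.13, 0.89, 0.71 and 1.04 FPKM in GMP and 3.73, 3.76, 33.8 and 46.4 FPKM in MEP. All MEP libraries lay above all GMP libraries, and MEP replicates 3 and 4 were far above the other MEP libraries (-3.18 ± 0.66 SE, adjusted p = 0.00157). Igll1, part of the surrogate light chain of early B cells, had 1.18, 1.59, 2.55, 0.91 and 1.84 FPKM in GMP and 6.48, 5.52, 128 and 174 FPKM in MEP (-3.66 ± 0.92 SE, adjusted p = 0.00497). Dntt, the polymerase that adds bases at antigen receptor joints, differed by -3.37 ± 0.74 SE and Vpreb1 by -2.91 ± 0.85 SE. Without MEP replicates 3 and 4, 3 of the 13 were called higher in MEP and 1 higher in GMP, with a median of -0.56. MEP replicates 3 and 4 held the highest lymphoid sums, so a smaller difference follows from leaving them out. Those called higher in MEP were then Cd79a (-1.63), Dntt (-1.62) and Igll1 (-1.45), while Vpreb1 (-0.87) and Ebf1 (-0.71) were within the fold limit. Without GMP replicates 3 to 5, 2 of the 13 were called higher in MEP, with a median of -2.48. Among the genes named here, Igll1 (-3.77 ± 1.47 SE, adjusted p = 0.0696), Vpreb1 (-3.05 ± 1.36 SE, 0.103) and Ebf1 (-2.44 ± 1.07 SE, 0.0985) were then not called. For Igll1 and Vpreb1 the difference was no smaller than with all libraries, and the SE was larger.

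Cd79b, the other signalling chain, took a different course, with 28.6, 27.0, 25.5, 16.7 and 26.7 FPKM in GMP and 4.84, 5.22, 18.1 and 31.1 FPKM in MEP. All but replicate 4 of GMP were close together, and MEP replicates 1 and 2 were the lowest of the 9 libraries (1.06 ± 0.45 SE, adjusted p = 0.0618). It was called higher in GMP without MEP replicate 3 (1.28, adjusted p = 0.0476), without MEP replicate 4 (1.53, adjusted p = 0.00419) and without both (2.08, adjusted p = 3.62e-05). MEP replicates 3 and 4 held its highest MEP values, so a larger difference follows from leaving them out. With all libraries kept it was also called with mitochondrial genes left out of a common total (1.19, adjusted p = 0.0332), with median-ratio scaling (1.13, adjusted p = 0.0495) and in a fit of all 6 normal populations (1.06, adjusted p = 0.0298). Vpreb3 was not called without MEP replicate 3 (-2.02, adjusted p = 0.0873) or without MEP replicate 4 (-1.89, adjusted p = 0.0813), nor without GMP replicate 1 (adjusted p = 0.0511) or 2 (adjusted p = 0.0537). The 4 B cell markers summed to between 17.7 and 29.0 FPKM in GMP and between 10.6 and 139 FPKM in MEP. The 3 markers of lymphoid progenitors summed to at most 0.7 FPKM in GMP and to between 2.36 and 53.6 FPKM in MEP, and the 3 T cell markers to at most 4.49 FPKM. The part of B-lineage cells in the MEP values was not tested.

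Genes of the mast cell, basophil and eosinophil branches were mostly higher in GMP. Of 14 tested members of 16, 11 were called higher in GMP, 1 higher in MEP and 2 were not called, with a median of 3.54. Mcpt8, a protease of basophils, had 43.6, 25.2, 56.5, 59.4 and 30.7 FPKM in GMP and 0, 0.35, 0 and 0.37 FPKM in MEP, being listed at 0 in MEP replicates 1 and 3 (5.17 ± 0.25 SE, adjusted p = 1.62e-08). Prg2, the eosinophil major basic protein, had 711, 291, 1260, 1059 and 694 FPKM in GMP and 9.84, 0.72, 1.41 and 166 FPKM in MEP. MEP replicate 4 stood out in its group and remained below the lowest GMP library (6.27 ± 1.12 SE, adjusted p = 5.06e-04), and without it the difference was 7.66 (adjusted p = 2.99e-06). Fcer1g, the signalling chain of the IgE receptor and of Fcγ receptors, was at 245 to 420.1 FPKM in GMP and 9.33 to 38.6 FPKM in MEP (4.09 ± 0.33 SE). Prss34, another basophil protease, differed by 5.09 ± 0.32 SE, Epx, eosinophil peroxidase, by 3.47 ± 0.56 SE (4.12 without MEP replicate 4), Cpa3, the mast cell carboxypeptidase, by 3.79 ± 0.33 SE, and Hdc, which makes histamine, by 5.24 ± 0.24 SE. Il1rl1, which encodes the interleukin-33 receptor ST2 of mast cells, was the member higher in MEP, with 1.14, 0.49, 3.32, 1.88 and 1.83 FPKM in GMP and 21.8, 16.3, 18.2 and 20.8 FPKM in MEP (-2.97 ± 0.26 SE, adjusted p = 1.86e-06). The 4 mast cell and basophil markers summed to between 85.8 and 241 FPKM in GMP and between 2.65 and 5.48 FPKM in MEP.

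Stem and multipotent progenitor genes differed in both directions. The list, which holds the sorting gene Cd34, summed to between 137.7 and 186.3 FPKM in GMP and between 43.8 and 59.9 FPKM in MEP. Of 13 tested members of 22, 3 were called higher in GMP, 2 higher in MEP and 8 were not called, with a median of 0.18. Over all tested genes 12.6% were called higher in GMP and 10.3% higher in MEP, so these few calls give no direction for the list. Satb1, a chromatin organiser, was higher in GMP (26.5 to 42.6 FPKM in GMP and 4.91 to 9.04 FPKM in MEP, 2.13 ± 0.17 SE). The genes behind the sort are no finding. Cd34 was at 70.0 to 98.3 FPKM in GMP and 0.62 to 4.55 FPKM in MEP, Fcgr3 at 129.6 to 189.5 and 0.59 to 6.27 FPKM and Fcgr2b at 38.8 to 43.3 and 0.55 to 1.63 FPKM, and Kit was present in all libraries, at 50.6 to 67.4 and 86.5 to 97.9 FPKM. Ptprc, the pan-leukocyte antigen CD45, differed by 1.11 ± 0.17 SE and was within the fold limit without MEP replicate 2 (0.93).

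Proliferation genes set the sisters apart little. Of 22 DNA replication genes 1 was called, higher in MEP, with a median of -0.16, and of 22 mitosis genes 1 was called, higher in MEP, with a median of -0.21. With mitochondrial genes left out of a common total, the median over all genes moved by 0.123, so list medians this near 0 carry no direction. Pcna, the sliding clamp of the replication fork, was at 334 to 431 FPKM in GMP and 368 to 422 FPKM in MEP (-0.02 ± 0.09 SE). Tyms (0.08) and Gins2 (-0.10, of whose windows 69.1% recur elsewhere) overlapped as well, while Mki67 (-0.66), Ube2c (-0.59) and Top2a (0.23) had groups that did not overlap, within the fold limit. Such separation is common here, since 23.9% of all tested genes had every GMP library above every MEP library and 28.7% the reverse. Mcm2, a subunit of the replicative helicase, was the replication gene called (-1.05 ± 0.10 SE), and it fell within the fold limit without GMP replicate 4 (-0.97) and under either scaling. Cenpa, the centromeric histone, was the mitosis gene called, with 41.5 to 54.4 FPKM in GMP and 109 to 115 FPKM in MEP (-1.24 ± 0.08 SE). Among 15 genes of the G1 phase 3 were called, all higher in MEP. Over all tested genes 10.3% were called higher in MEP and 12.6% higher in GMP. The few calls of the replication, mitosis and G1 lists thus give no direction for these lists. Ccne1, cyclin E1, had 5.03, 4.9, 5.18, 4.75 and 6.77 FPKM in GMP and 36.2, 28.0, 27.9 and 25.0 FPKM in MEP (-2.25 ± 0.13 SE, adjusted p = 5.86e-08), and E2f4, an E2F family member needed for red cell formation, had 28.0, 22.5, 22.6, 23.5 and 25.2 FPKM in GMP and 75.4, 78.3, 80.8 and 80.9 FPKM in MEP (-1.66 ± 0.08 SE). Cdk4 (-0.40), Cdk6 (0.49) and Ccnd3 (-0.71) had groups that did not overlap, within the fold limit.

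The level in common myeloid progenitors (CMP, n = 5), held to be the parent of both, was set beside each called gene as a description. The counts and positions below use means of log2(FPKM + 1). For 1164 of the 1447 genes called higher in GMP (80.44%) and for 1052 of the 1185 called higher in MEP (88.78%) the CMP mean lay between the means of its sister populations. On a scale from 0 at the MEP mean to 1 at the GMP mean, the median position of CMP was 0.652 for genes called higher in GMP. It was 0.377 for genes called higher in MEP. On the log scale, the median thus stood nearer to the population with the higher level in both sets. Positions on plain FPKM were not computed over the called genes and can differ. By plain means, Klf1 averaged 34.1 FPKM in CMP, nearer the 0.532 of GMP than the 119.3 of MEP, whereas on the log scale it was nearer MEP. Also by plain means, Elane in CMP was nearer the 8.49 FPKM of MEP than the 4302 FPKM of GMP. Spi1, at a plain mean of 59.0 FPKM in CMP, was nearer the 70.8 of GMP than the 6.12 of MEP. The CMP mean was nearer GMP for 954 of the former and nearer MEP for 837 of the latter. It lay beyond GMP for 223 genes called higher in GMP and beyond MEP for 121 genes called higher in MEP. Gata2 averaged 73.3 FPKM in CMP and Etv6 158 FPKM, each above both populations. Cebpe averaged 0.928 FPKM, Ms4a3 20.5 FPKM and Elane 231 FPKM in CMP, each far below GMP. Car1 averaged 1010 FPKM over CMP libraries that ran from 184 to 2541 FPKM, and Epor averaged 16.9 FPKM over libraries that ran from 5.6 to 37.1 FPKM.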

How the data were processed

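RNA from 5 GMP and 4 MEP samples had been amplified with the NuGEN Ovation RNA-Seq V2 kit, which does not mark strand, so overlapping and antisense genes cannot be told apart. The deposited values are FPKM per Ensembl gene with 2 decimals, made by the authors with RSEM on mm9 per the submitters' processing notes. Aligner and annotation are not given in the sources used here. FPKM keep no total count, so depth is known only between libraries and no counting interval is given. Of its 68 sample columns, 49 matched a labelled sample and 19 were not used. Symbols and coordinates came from GENCODE M1 (mm9) for 33068 of 38253 genes. No library was a copy of another.

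Genes with a mean under 1 FPKM were left out, log2(FPKM + 1) was fitted on the 9 samples with limma 3.58.1 (R 4.3.3) with a mean-variance trend, and two-sided p-values were adjusted by Benjamini-Hochberg over 11480 genes. The script was tested on simulated data. Sequence shared between genes was measured in 31-base windows. The comparison and the 25 lists were chosen with earlier results of these data known. Text names all tested regulators, the 3 members with the highest level in each other list, the 8 largest changes each way and 4 genes of the sort (112 genes), with 84 more named after their values were seen. Some genes under this rule are not reported here. In all, 21 alternatives were run. Leaving out MEP replicates 3 and 4 together, and GMP replicates 3 to 5 together, was not planned beforehand. Same-numbered samples did not deviate together (correlations from -0.023 to 0.074), so they were not paired. P-values measure the spread between libraries, each from an individual mouse. The labels do not give the replicate experiment, so a difference between experiments can be part of that spread or of the group difference. These cannot be told apart here. Hbb-bs, Hbb-bt, Ahsp and Cdkn2d were not analysed here.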

Additional observations from a re-analysis of the deposited data

Results flagged for a closer look

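In 21 of 392 tests a single library stood apart from the rest of its group for a named gene, by the gap to its nearest neighbour over the range of the group. Chance flags about 1 group in 20, which comes to 19.6 of 392, so the number of flags is near what chance gives. The test looks for a single library and misses groups that split into sets, as for Cd74 in GMP and Cd79a in MEP. Genes that vary together across the same libraries also count as separate tests. The number of flags therefore does not show that differences between libraries of a group are at chance level. Each value is in FPKM, with the range of the rest of the group beside it.

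MEP replicate 3 was the lowest of its group for Mpo at 2.74 (others 24.44 to 30.44), for Alas2 at 1.68 (others 7.9 to 9.44) and for Slc4a1 at 2.93 (others 7.71 to 8.55), and the highest for H2-DMb1 at 3.78 (others 2.53 to 2.66). MEP replicate 4 was the highest for Cebpe at 2.07 (others 0.11 to 0.21) and Cybb at 10.31 (others 1.46 to 2.11), and the lowest for Vwf at 7.14 (others 12.72 to 14.24), Pklr at 49.56 (others 61.62 to 62.9) and Lmna at 22.29 (others 33.43 to 36.24). MEP replicate 1 was the highest for Ermap at 237.8 (others 203.5 to 206.2), and MEP replicate 2 for Mafk at 14.82 (others 10.13 to 10.51).

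Among GMP, replicate 2 was the lowest for Ltf at 6.41 (others 43.82 to 64.94) and Stat5a at 12.54 (others 13.28 to 13.48) and the highest for Anxa3 at 192.5 (others 167.5 to 171.9). Replicate 1 was the highest for Fcnb at 191 (others 77.19 to 100.2). Replicate 3 was the highest for Aldh1a1 at 1.07 (others 0 to 0.22) and for Add2 at 0.08, the others being listed at 0. Replicate 4 was the lowest for Irf5 at 2.82 (others 4.39 to 5.13) and Cd79b at 16.69 (others 25.54 to 28.57). Replicate 5 was the highest for Ccne1 at 6.77 (others 4.75 to 5.18) and Ank1 at 1.01 (others 0.14 to 0.33).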

How the results depend on the processing

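The count of called genes (2632, with 1447 higher in GMP and 1185 higher in MEP) depended most on the limit of fold, without which 7080 genes had an adjusted p below 0.05, 3213 of them higher in GMP and 3867 higher in MEP. Leaving out single libraries gave 2601 to 2695 genes in all, 1408 to 1509 higher in GMP and 1164 to 1204 higher in MEP. The fit with the replicate block gave 2658 genes (1458 and 1200), but the numbers are shared in name alone, as given under the processing. With mitochondrial genes left out of a common total the median over all genes moved by 0.123 and the split was 1642 to 969, or 62.9% higher in GMP against 55% in the reported fit. A pseudocount of 0.1 gave 3116 genes. Among 196 named genes and 21 alternatives, 3999 of 4116 values kept their side of the threshold, 66 passed it anew and 51 no longer passed it. No called gene among the named ones changed sign, whereas uncalled genes near 0 such as Pcna and H2-Aa did under some alternatives. Of 152 named genes that were called, 17 lost the call under at least 1 alternative, and the cause was not tested. Depth limits what can be said of low genes, since FPKM give no counting error, and the MEP libraries were the shallower ones.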

Other observations

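Genes outside the 25 lists were among the largest differences. On the GMP side, Tcfec, a relative of the MiT transcription factors, had 70.9, 85.2, 61.4, 54.5 and 61.9 FPKM in GMP and 0.34, 0.07, 0.07 and 0 FPKM in MEP (5.91 ± 0.14 SE, adjusted p = 1.48e-10 by limma). Clec12a, an inhibitory C-type lectin receptor, had 244, 217, 211, 187 and 209 FPKM in GMP and 1.55, 1.7, 0.33 and 3.99 FPKM in MEP (6.36 ± 0.29 SE). Gstm1, a glutathione transferase, was at 677 to 1114 FPKM in GMP and 13.2 to 16.3 FPKM in MEP (5.77 ± 0.13 SE), and Slpi, an inhibitor of elastase and cathepsin G, at 271 to 410.2 and 1.24 to 10.9 FPKM (6.27 ± 0.40 SE). Hk3, a hexokinase of myeloid cells, differed by 5.52 ± 0.29 SE, opposite to Hk1. In each of these the groups did not overlap. Dmkn was listed at 0 in all MEP libraries and had 46.8, 51.5, 43.7, 34.3 and 28.6 FPKM in GMP.

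On the MEP side, Blvrb, biliverdin reductase B of red cells, had 6.74, 4.16, 6.37, 9.06 and 6.58 FPKM in GMP and 479, 452, 371 and 411 FPKM in MEP (-5.85 ± 0.16 SE, adjusted p = 3.84e-10). Nfia, a nuclear factor that favours the erythroid over the granulocytic fate, had 2.8, 2.68, 2.71, 1.89 and 0.81 FPKM in GMP and 117, 105, 112 and 118 FPKM in MEP (-5.21 ± 0.20 SE, adjusted p = 3.44e-09). Lmna, which encodes the A-type lamins of the nuclear envelope, was at 0 to 0.05 FPKM in GMP and 22.3 to 36.2 FPKM in MEP (-4.98 ± 0.15 SE). Mt2, a metallothionein, differed by -6.99, Sphk1, a sphingosine kinase, by -6.71, the gene model Gm15915 by -6.65, Atp1b2, a sodium pump subunit, by -6.57, Cldn13 by -6.10, Aldh1a1, a retinaldehyde dehydrogenase, by -6.04 and Hemgn, a nuclear protein of blood progenitors, by -4.96. Phlda2 was listed at 0 in all GMP libraries and had 7.61, 9.5, 6.68 and 10.5 FPKM in MEP.

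In all, 24 genes called higher in GMP were listed at 0 in every MEP library, and 18 called higher in MEP were listed at 0 in every GMP library, which at these unknown depths does not show absence. Among biotypes, 23.4% of 10358 protein coding genes were called, as were 12.8% of 351 pseudogenes and 16.2% of 111 lincRNA genes. Of the tested genes, 32 fell into 11 sets whose members had the same 9 values, 22 of them called in 6 sets, so the count of called genes includes such copies.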
